A study of Sus scrofa with 12 samples.

Results

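Spheroids formed in DMEM/F12 from porcine oviduct epithelial cells were compared with the freshly scraped cells, gene by gene. The comparison takes 8 of the 12 libraries of the series, 4 of each kind, chosen by their labels, and all 30461 gene rows of the deposited table after 92 synthetic spike-in rows were dropped. The assay was 3′ mRNA sequencing of bulk RNA, in which oligo-dT primes the polyadenylated transcripts and reads gather near their 3′ ends. The fresh group, called fresh cells here, is oviduct tissue scraped to single cells and lysed. The other group, called spheroids here, is the same cell type grouped into 3-dimensional clusters in DMEM/F12, a basal culture medium, and its library names carry the letters FBS, which the labels do not explain. The remaining 4 libraries, from spheroids formed in a medium labelled incubation medium, share the estimate of the spread and serve as the nearest comparison. Neither the age, the strain nor the cycle stage of the pigs is labelled, and the labels give neither the composition of the media nor the time in culture. Dissociation, culture, time, medium and growth as clusters all separate the groups, so their parts in a difference cannot be told apart. Nothing labelled says that replicates came from separate animals, so p-values measure the spread between these samples, which may be technical. Libraries of the same replicate number deviated alike, as given below, and the fit behind these p-values leaves that number out.

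The oviduct lining is a single layer of ciliated cells, whose beating moves gametes and the embryo, and secretory cells, which release the fluid and glycoproteins that surround them. Estradiol and progesterone, through receptors in both the epithelium and the stroma beneath it, set the balance of these cells over the cycle. Epithelial cells taken from tissue are known to go through a burst of stress transcription during dissociation, and in culture they often lose differentiated features while they spread or divide.

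Total counts were 5045187 to 6026881 in the fresh cell libraries and 7583552 to 8068187 in the spheroid libraries, with no overlap (two-sided exact permutation p = 0.0286, the smallest that 4 against 4 allows). The 10 genes highest in a library held 9.52 to 10.4% of its counts in fresh cells and 7.27 to 8.13% in spheroids (exact permutation p = 0.0286), and the number of rows above 0 did not separate the groups (exact permutation p = 0.143). Levels are CPM, the count of a gene relative to the library total scaled by the trimmed mean of M-values (TMM). Means are given ± SD with n = 4 libraries, and the 4 values of a group stand in the order of replicates 1 to 4. Changes are log2 fold changes of spheroids minus fresh cells, given ± their standard error (SE) or alone. Of the gene rows, 14070 had enough counts to be tested, and a gene is said to have risen or fallen where the Benjamini-Hochberg adjusted p of the edgeR quasi-likelihood test was under 0.05. Where all 4 libraries of a group held at most 3 counts, the limit that a count of 0 allows, the change is given only as a bound. That bound is taken from the mean of the other group. Some groups lay close to that limit without meeting the rule, such as fresh cells for MMP9, THY1, TTK and CDKN2B below. Their fold changes rest on few counts. The label of epithelium was checked on the adhesion protein EPCAM (ENSSSCG00025052178), which stood at 1049, 901, 888 and 777 CPM in fresh cells and 617, 513, 804 and 579 CPM in spheroids. It was present in every library of both groups, and it was lower in spheroids (log2 change -0.52 ± 0.15 SE, adjusted p = 0.00741) although the groups overlapped.

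Most genes differed. Of the tested genes, 9951 (70.7%) passed, 4935 (35.1%) higher and 5016 (35.7%) lower in spheroids, and the groups did not overlap in 9196 (65.4%). A change of at least 2-fold that also passed the test was found in 4976 genes (35.4%), 2118 (15.1%) higher and 2858 (20.3%) lower. At larger sizes the falls were also more numerous, with 735 rises against 1319 falls of at least 4-fold and 147 against 245 of at least 16-fold. Beyond 64-fold the order turned, with 45 rises and 36 falls. With so many calls, the share of a gene list that passed has to be read against these percentages, and the median log2 fold change of a list against -0.014, the median over all tested genes.

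**Figure D1:**
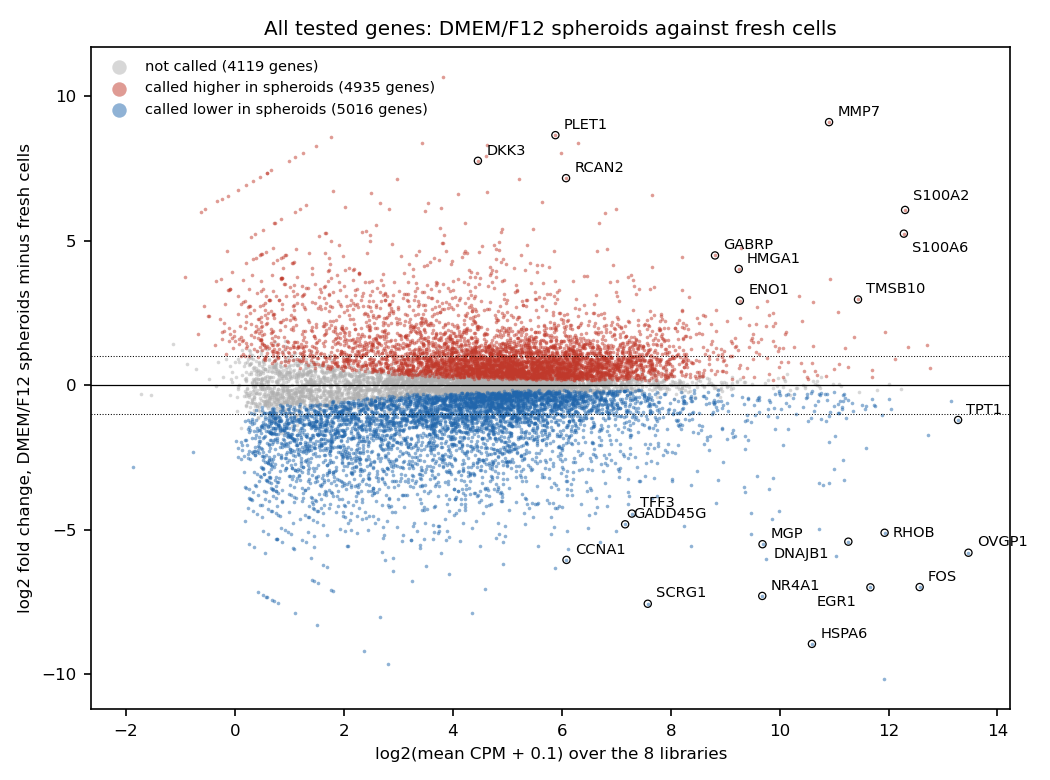
Log2 fold change of each of the 14070 tested genes (DMEM/F12 spheroids minus fresh cells, vertical axis) against the log2 of its mean CPM plus 0.1 over the 8 libraries (horizontal axis); red points were called higher (4935), blue lower (5016) and grey were not called (4119), and dotted lines mark a 2-fold change. Circled genes are named in the text: MMP7 and PLET1 stand at the top and HSPA6, SCRG1 and FOS at the bottom.

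The RNA of the cells was redistributed as well. The 2858 genes that fell at least 2-fold took up 30.6, 31.5, 28.9 and 29.3% of the counts of fresh cells in tested genes and 7.30, 6.61, 5.93 and 6.76% of those of spheroids. The 2118 genes that rose at least 2-fold went the other way, from 7.36 ± 0.0997% to 27.7 ± 0.775%. Genes that were called at under 2-fold held 43.7 ± 0.798% of the counts in fresh cells and 45.7 ± 0.196% in spheroids, and genes that were not called 18.9 ± 0.397% and 19.9 ± 0.353%. Between fresh cells and spheroids the values of the falling class did not overlap, nor did those of the rising class. These classes were made from the same contrast, so the shares describe the size of the change and carry no test.

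**Figure D2:**
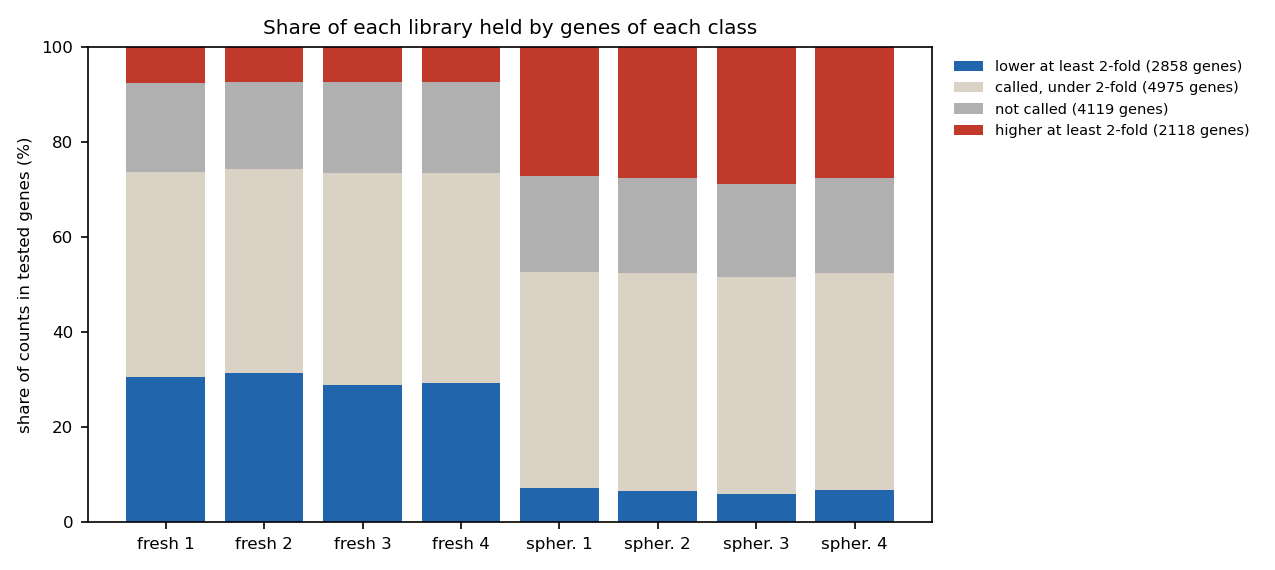
Share of the counts in tested genes (vertical axis, percent) held by each class of gene in each fresh cell and DMEM/F12 spheroid library; blue, genes called lower at least 2-fold, red, genes called higher at least 2-fold, beige, called under 2-fold, grey, not called. The blue share is 28.9 to 31.5% in fresh cells and 5.93 to 7.30% in spheroids.

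The shares that rose and fell differed between kinds of gene. Of 998 tested long noncoding RNAs, 80 (8.02%) rose and 446 (44.7%) fell at least 2-fold, with a median log2 fold change of -0.81. Of 12765 protein-coding genes, 2013 (15.8%) rose and 2306 (18.1%) fell at that size, with a median of 0.042. Pseudogenes also fell more often than they rose, 78 (32.8%) against 15 (6.30%) of 238. Of 11 small nuclear RNAs, whose mature forms carry no poly(A) tail, 8 fell and 1 rose at least 2-fold, and of 32 small nucleolar RNAs 14 fell and 5 rose. Genes at low levels leaned the same way: among the 3518 genes lowest in mean CPM (0.173 to 6.78 CPM) 16.9% rose and 33.7% fell at least 2-fold, and among the 3518 highest (50.6 CPM and above) 17.0% rose and 11.8% fell. Total counts were lower in fresh cells, and with all libraries thinned to the smallest total 8.38% of long noncoding RNAs were higher and 46.4% lower, against 15.2% and 17.8% of protein-coding genes. The parts of gene type, level and depth in these shares were not tested. 

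**Figure D3:**
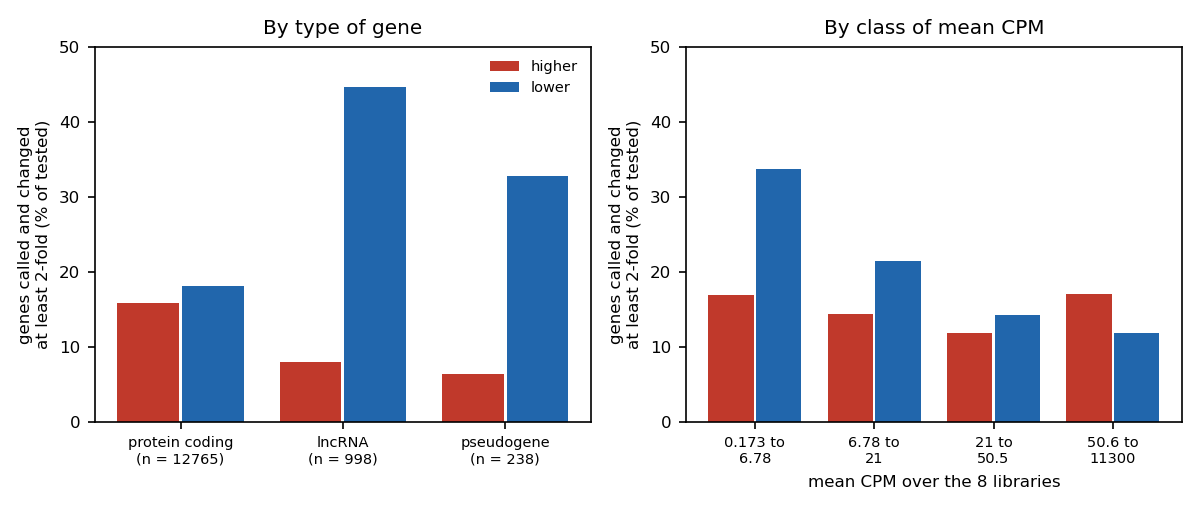
Percent of tested genes (vertical axis) that were called and changed at least 2-fold, higher (red) or lower (blue) in DMEM/F12 spheroids than in fresh cells, by type of gene (left) and by 4 equal classes of mean CPM over the 8 libraries (right). Of the long noncoding RNAs 44.7% were lower, against 18.1% of the protein-coding genes.

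The account that follows takes 37 lists of genes by function, from oviduct identity to metabolism. For each it gives how many of the listed genes could be tested and how many of those rose or fell. Members and lists were chosen with earlier results of these data known, so these counts describe the lists and carry no test of them.

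**Figure D4:**
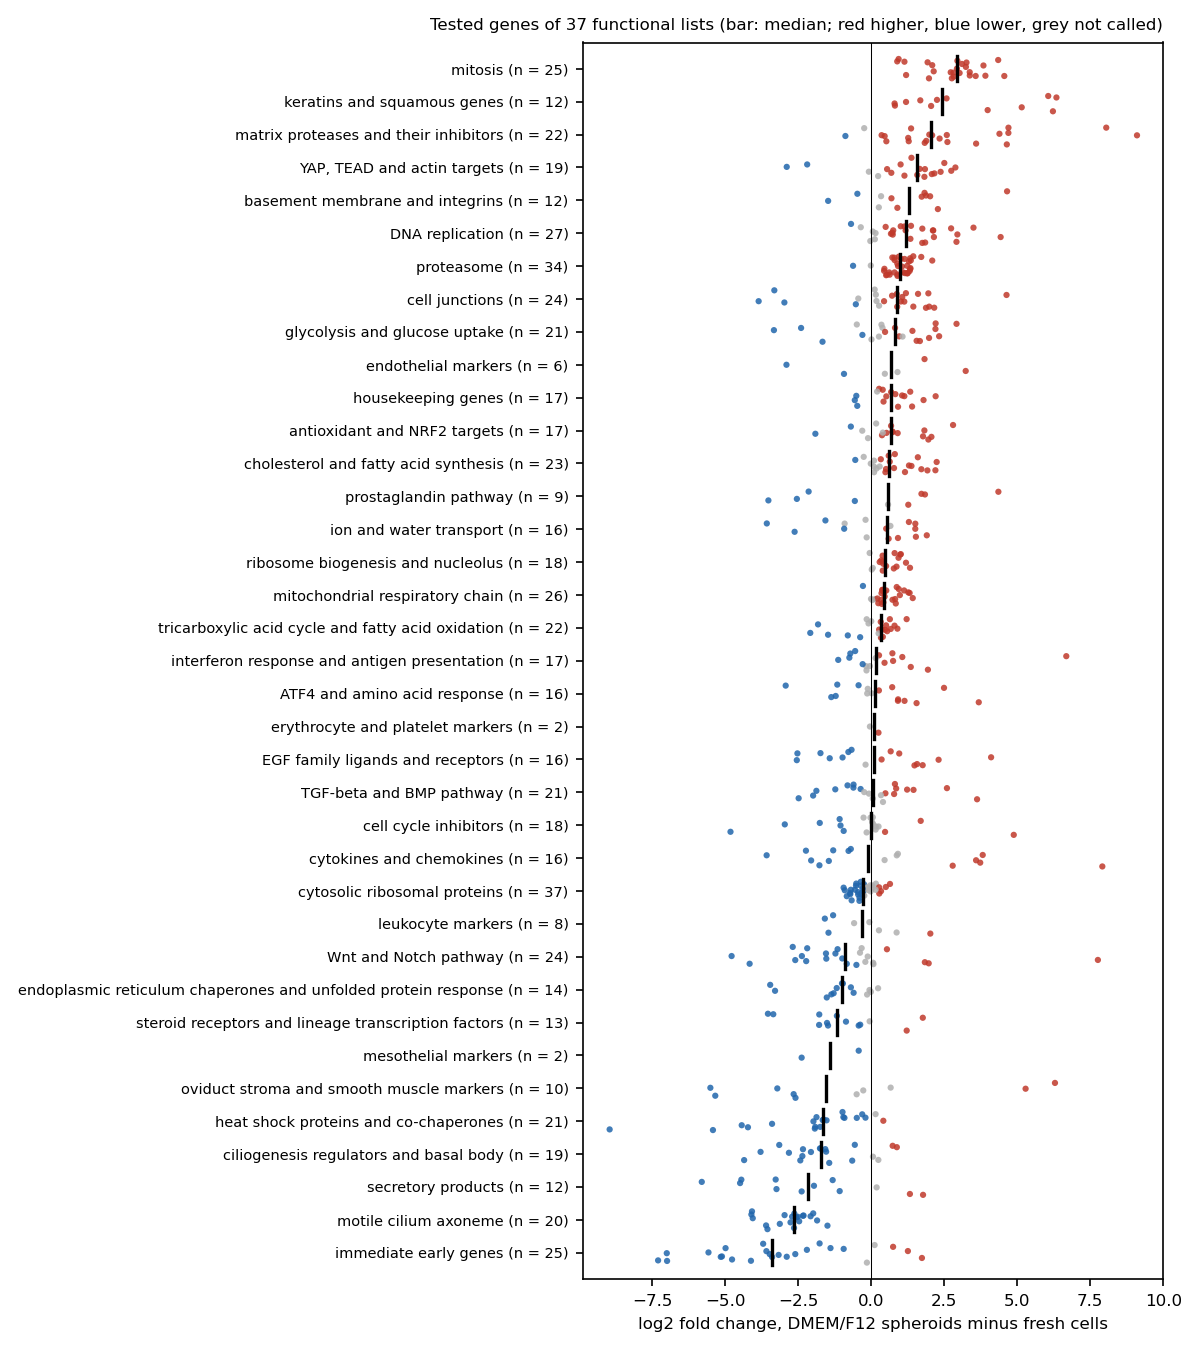
Log2 fold change (DMEM/F12 spheroids minus fresh cells, horizontal axis) of every tested gene of the 37 lists, 1 list a row in order of the median, which is the black bar; red points were called higher, blue lower and grey were not called. Mitosis, the keratin list, which also holds S100 proteins and annexins, and matrix proteases with their inhibitors have the highest medians (2.94, 2.42 and 2.04). Immediate early genes and the motile cilium axoneme have the lowest (-3.39 and -2.63).

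Products of the secretory cell fell. Of 22 listed secretory genes 12 were tested, 9 fell and 2 rose, and every call was of at least 2-fold (median -2.17). The median was -1.56 without fresh cell replicate 2, -2.92 without spheroid replicate 4 and -3.34 among genes with whole counts. OVGP1 (ENSSSCG00025053839), the oviduct glycoprotein that coats the oocyte and embryo, stood at 25009, 15908, 21874 and 26172 CPM in fresh cells and 696, 196, 186 and 522 CPM in spheroids (log2 change -5.80 ± 0.60 SE, adjusted p = 8.14e-07), with every fresh cell library far above every spheroid library. SLPI, a secreted inhibitor of leukocyte proteases, was at 4824, 2868, 5507 and 3621 CPM in fresh cells and 725, 304, 283 and 434 CPM in spheroids (log2 change -3.27 ± 0.36 SE, adjusted p = 1.48e-06). For both genes spheroid replicates 1 and 4 were the higher pair, and for both the deposited count was not whole in 58.3% of the 12 libraries. A count that is not whole is an estimate whose origin is not given in the sources used here, so the levels of such genes are uncertain. TFF3, a trefoil peptide of mucous surfaces, fell from 298 ± 112 to 13.7 ± 2.97 CPM (log2 change -4.44 ± 0.26 SE, adjusted p = 4.13e-09). Complement C3 fell from 226 ± 73.4 to 90.6 ± 24.9 CPM (log2 change -1.32, adjusted p = 0.00412). HP, which encodes the haemoglobin-binding plasma protein haptoglobin, was low and uneven at 4.87, 23.7, 3.55 and 9.02 CPM in fresh cells and 1.09, 2.44, 0.132 and 4.08 CPM in spheroids (log2 change -2.38, adjusted p = 0.00577), and its groups overlapped. Without fresh cell replicate 2 the log2 fold change of HP was -1.55, and without spheroid replicate 4 it was -3.00. The exceptions were SPP1, the secreted adhesive phosphoprotein osteopontin, and MUC1, a membrane mucin. SPP1 stood at 3541, 2828, 2341 and 3254 CPM in fresh cells and 8545, 7958, 4766 and 8729 CPM in spheroids (log2 change 1.33 ± 0.17 SE, adjusted p = 7.71e-06). MUC1 rose from 159 ± 15.1 to 545 ± 45.9 CPM (log2 change 1.78, adjusted p = 9.85e-10). The list as a whole summed to 22854 to 34335 CPM in the fresh cell libraries and 5949 to 10787 CPM in the spheroid libraries, lower in every spheroid library. Most of that sum was OVGP1 in every fresh cell library and SPP1 in every spheroid library. Its fall therefore reflects OVGP1 and does not measure the other members. In bulk RNA, fewer cells of a type and less RNA per cell cannot be told apart, here or below.

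Genes of ciliated cells fell throughout. All 20 tested of 43 listed axoneme genes, which encode the moving core of the cilium, fell at least 2-fold, with no overlap between groups and a median of -2.63. ROPN1L, a radial spoke protein (ENSSSCG00025007487), stood at 371, 333, 375 and 296 CPM in fresh cells and 74.9, 56.6, 42.5 and 48.1 CPM in spheroids (log2 change -2.63 ± 0.18 SE, adjusted p = 1.76e-08), and CAPS, a calcium-binding protein abundant in ciliated cells, at 113, 119.8, 112 and 102 CPM in fresh cells and 15.1, 10.9, 4.50 and 6.24 CPM in spheroids (log2 change -3.60 ± 0.29 SE, adjusted p = 7.09e-08). Log2 fold changes within the list ran from -1.50 for CFAP53 to -4.10 for DNALI1, a dynein light intermediate chain, with -4.08 for CFAP52 and -2.31 for TPPP3, a microtubule-binding protein. Spheroids still held axoneme RNA, since the summed level of the list was 1769 to 2112 CPM in the fresh cell libraries and 235 to 452 CPM in the spheroid libraries.

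Regulators of cilium formation were lower too, but not all of them. Of 19 tested genes on that list 15 fell and 2 rose (median -1.73). FOXJ1, the master transcription factor of motile cilia, stood at 439.7, 447, 455 and 471 CPM in fresh cells and 133, 91.2, 54.8 and 74.8 CPM in spheroids (log2 change -2.35 ± 0.21 SE, adjusted p = 2.31e-07). TP73, which acts upstream of it, was at 81.1, 72.8, 79.7 and 63.3 CPM in fresh cells and 14.2, 10.7, 7.28 and 9.85 CPM in spheroids (log2 change -2.81 ± 0.17 SE, adjusted p = 4.31e-09). CCNO, needed for the mass production of centrioles, was at 10.1, 3.59, 4.11 and 3.33 CPM in fresh cells and at the counting limit in every spheroid library. By its mean CCNO was at least 14.4-fold lower, a bound raised by fresh cell replicate 1. DYNLRB2, a dynein light chain, fell from 331 ± 66.3 to 37.3 ± 17.5 CPM (log2 change -3.15, adjusted p = 6.86e-07). IFT172, a carrier of cargo within all cilia, fell from 76.5 ± 7.23 to 26.2 ± 6.19 CPM (log2 change -1.54, adjusted p = 3.37e-06). BBS4, which sorts membrane proteins into cilia, fell by little (log2 change -0.56, adjusted p = 7.31e-05). CEP152, a scaffold of centriole duplication in dividing cells, rose from 1.10 ± 0.194 to 2.03 ± 0.614 CPM (log2 change 0.88 ± 0.29 SE, adjusted p = 0.0131), with no overlap, but missed the threshold without spheroid replicate 2 (adjusted p = 0.0861), with thinned counts (0.0879) and by DESeq2 (0.0568).

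Hormone receptors and factors of the oviduct lineage mostly fell. Of 13 tested genes of 21, 10 fell, 7 of them at least 2-fold, and 2 rose (median -1.17). ESR1, the estrogen receptor, stood at 565, 625, 657 and 680.4 CPM in fresh cells and 200.2, 177, 150.3 and 207 CPM in spheroids (log2 change -1.78 ± 0.12 SE, adjusted p = 1.06e-08), all spheroid values below all fresh ones, and its count was not whole in 66.7% of the 12 libraries. KLF4, a zinc finger factor of epithelial differentiation that also responds quickly to stress, stood at 962, 1872, 1042 and 938 CPM in fresh cells and 107, 114, 95.8 and 99.2 CPM in spheroids (log2 change -3.53 ± 0.21 SE, adjusted p = 4.69e-09), with fresh cell replicate 2 above the rest of its group. Its relative KLF5 fell from 467 ± 82.9 to 207 ± 42.7 CPM (log2 change -1.17, adjusted p = 4.45e-06). WT1, a factor of the Müllerian duct and of mesothelium, went from 214 ± 22.4 to 159 ± 24.8 CPM with overlapping groups (log2 change -0.43, adjusted p = 0.00425). In the other direction SOX9, a factor of progenitor and secretory epithelium, rose from 60.05, 48.6, 61.7 and 54.7 to 102, 201, 276 and 188 CPM (log2 change 1.77 ± 0.25 SE, adjusted p = 2.27e-05).

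The rapid stress response fell. Of 25 tested immediate early genes, which are switched on within minutes of a stimulus, 20 fell, 19 of them at least 2-fold, and 3 rose (median -3.39). Together they held 43253 to 61632 CPM in the fresh cell libraries and 4005 to 4361 CPM in the spheroid libraries. FOS, which forms the AP-1 transcription factor with JUN proteins, stood at 10799.9, 15556, 10813 and 11129 CPM in fresh cells and 109, 109.9, 68.3 and 94.01 CPM in spheroids (log2 change -6.98 ± 0.19 SE, adjusted p = 3.47e-12). EGR1, a zinc finger factor, stood at 6912, 7266, 5333 and 6300.4 CPM in fresh cells and 59.97, 53.7, 47.5 and 41.2 CPM in spheroids (log2 change -6.99 ± 0.17 SE, adjusted p = 1.19e-12). NR4A1, an orphan nuclear receptor, fell from 1631 ± 449.8 to 10.4 ± 4.93 CPM (log2 change -7.29 ± 0.30 SE, adjusted p = 1.44e-10). ATF3 fell from 3293 ± 740.5 to 104 ± 2.74 CPM (log2 change -4.98, adjusted p = 7.53e-12). The shear- and stress-responsive factor KLF2 fell from 1379 ± 446 to 38.9 ± 5.69 CPM (log2 change -5.15, adjusted p = 1.36e-10). The small GTPase RHOB fell from 7569.9 ± 1406 to 219.7 ± 19.6 CPM (log2 change -5.11, adjusted p = 3.47e-12). JUND, a more constant AP-1 member, fell less (log2 change -2.60, adjusted p = 1.9e-08). FOSL1, an AP-1 member that lasts longer and is typical of growing and spreading epithelium, rose instead, from 43.3, 30.1, 11.8 and 12.5 CPM in fresh cells to 64.8, 102, 86.9 and 74.7 CPM in spheroids (log2 change 1.74 ± 0.33 SE, adjusted p = 0.000295).

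Chaperones followed the same course. Of 21 tested heat shock genes 19 fell, 13 of them at least 2-fold, and 1 rose (median -1.66), and the list summed to 23550.4 to 31709.5 CPM in the fresh cell libraries and 6154 to 7052 CPM in the spheroid libraries. HSPA6, a strictly inducible HSP70, went from 3573, 3262, 2494 and 3003 CPM in fresh cells to 4.38, 6.04, 7.41 and 7.08 CPM in spheroids (log2 change -8.95 ± 0.20 SE, adjusted p = 9.6e-13). DNAJB1, its inducible partner, stood at 5056, 5813, 3938 and 4384 CPM in fresh cells and 106, 104, 130.1 and 110.1 CPM in spheroids (log2 change -5.41 ± 0.14 SE, adjusted p = 3.1e-12). HSPH1, a nucleotide exchange factor for HSP70, fell from 1352 ± 143 to 62.7 ± 5.96 CPM (log2 change -4.43, adjusted p = 9.9e-12). The small chaperone CRYAB fell from 3519.7 ± 837 to 335 ± 59.6 CPM (log2 change -3.39, adjusted p = 1.25e-09). The abundant members HSPA8, HSP90AA1 and HSPB1 also fell, with log2 fold changes of -1.74, -1.98 and -0.98. HSF1, the transcription factor that drives the inducible members, was itself higher in spheroids (33.6 ± 3.33 to 44.8 ± 1.21 CPM, log2 change 0.42, adjusted p = 0.000739).

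In the endoplasmic reticulum list 10 of 14 tested genes fell, 6 at least 2-fold, and 0 rose (median -0.98). HSPA5, the main chaperone of that compartment, stood at 3797, 4265, 2623 and 2421 CPM in fresh cells and 290.2, 291, 316 and 297 CPM in spheroids (log2 change -3.46 ± 0.17 SE, adjusted p = 6.08e-10), and fresh cell replicates 1 and 2 were the higher pair. HERPUD1, of the degradation machinery that removes misfolded proteins, fell from 847 ± 272 to 86.6 ± 5.11 CPM (log2 change -3.29 ± 0.19 SE, adjusted p = 3.22e-09). MANF fell from 428 ± 98.3 to 189 ± 10.8 CPM (log2 change -1.18, adjusted p = 4.13e-06). The disulfide isomerase PDIA6 fell from 578 ± 112 to 289 ± 29.3 CPM (log2 change -0.998, adjusted p = 5.62e-06). The lectin chaperone CANX fell under 2-fold (log2 change -0.60, adjusted p = 2.03e-05).

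Targets of ATF4, the factor that answers amino acid shortage and other stresses, did not move one way, with 8 rises and 5 falls among 16 tested genes (median 0.14). NUPR1, a small stress-induced chromatin protein, stood at 324, 245, 190.2 and 369.6 CPM in fresh cells and 4299, 3564, 2172 and 4458 CPM in spheroids (log2 change 3.68 ± 0.28 SE, adjusted p = 4.08e-08). DDIT3, which promotes cell death under lasting stress, fell from 141 ± 35.6 to 18.6 ± 1.63 CPM (log2 change -2.93 ± 0.18 SE, adjusted p = 5.12e-09). CEBPB fell from 393 ± 77.7 to 169.6 ± 34.3 CPM (log2 change -1.21, adjusted p = 4.26e-06). PSAT1, an enzyme of serine synthesis, fell from 219.8 ± 30.6 to 85.4 ± 23.4 CPM (log2 change -1.36, adjusted p = 3.53e-06). ATF4 itself was slightly lower with overlapping groups (461 ± 109.8 to 342 ± 47.05 CPM, log2 change -0.43, adjusted p = 0.017), and missed the threshold without fresh cell replicate 2 (log2 fold change -0.28, adjusted p = 0.0783) or without spheroid replicate 1 (-0.33, adjusted p = 0.0646). Antioxidant genes rose more often, 11 of 17 against 2 falls (median 0.68). NQO1, a quinone reductase and standard target of the factor NRF2, stood at 4.70, 3.77, 3.37 and 3.14 CPM in fresh cells and 27.9, 26.5, 34.9 and 16.2 CPM in spheroids (log2 change 2.80 ± 0.24 SE, adjusted p = 1.07e-07). Thioredoxin TXN rose from 496 ± 54.4 to 1699 ± 294 CPM (log2 change 1.77, adjusted p = 3.15e-08). Superoxide dismutase SOD1 rose from 225 ± 19.8 to 292 ± 9.14 CPM (log2 change 0.37, adjusted p = 0.000939). The iron store chain FTL rose from 1720.1 ± 342 to 6079.9 ± 391 CPM (log2 change 1.82, adjusted p = 9.94e-09), with counts not whole in 91.7% of the 12 libraries. The peroxidase PRDX6 fell from 186 ± 18.4 to 49.6 ± 5.72 CPM (log2 change -1.91, adjusted p = 1.65e-07), also with counts not whole in 91.7% of the 12 libraries. MT2A, a metal-binding metallothionein whose counts were not whole in any of the 12 libraries, did not pass at 971 ± 167 to 1280.2 ± 488 CPM (log2 change 0.40, adjusted p = 0.226), except with the replicate number as a block (adjusted p = 0.0476).

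Genes of cell division rose. All 25 tested of 33 listed mitosis genes rose with no overlap between groups, 23 of them at least 2-fold, and the median was 2.94. Their levels stayed modest, the list summing to 136 to 179 CPM in the fresh cell libraries and 712 to 828 CPM in the spheroid libraries. UBE2C, which helps destroy cyclins at the end of mitosis, stood at 6.79, 4.84, 5.24 and 6.47 CPM in fresh cells and 84.9, 91.2, 95.3 and 80.3 CPM in spheroids (log2 change 3.91 ± 0.15 SE, adjusted p = 6.63e-11). TOP2A, the enzyme that untangles sister chromosomes, was at 9.05, 5.02, 8.601 and 8.04 CPM in fresh cells and 48.8, 57.8, 46.7 and 49.6 CPM in spheroids (log2 change 2.72 ± 0.15 SE, adjusted p = 2.55e-09). The largest rise of the list was in TTK, a kinase of the spindle checkpoint, from 0.522, 0.717, 0 and 0.392 to 8.51, 10.3, 10.2 and 11.4 CPM (log2 change 4.56 ± 0.33 SE, adjusted p = 2.27e-08). CDC20, PRC1 and NUSAP1, which act on the spindle or on exit from mitosis, rose with log2 fold changes of 1.93, 1.20 and 1.14.

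Of 27 tested DNA replication genes 21 rose, 16 at least 2-fold, and 1 fell (median 1.18). Thymidine kinase TK1 stood at 1.39, 1.43, 1.496 and 1.96 CPM in fresh cells and 29.3, 36.8, 35.6 and 34.6 CPM in spheroids (log2 change 4.43 ± 0.19 SE, adjusted p = 2.64e-10). MCM7, of the replicative helicase, rose from 41.9 ± 4.69 to 92.5 ± 12.96 CPM (log2 change 1.14, adjusted p = 2.02e-06). RFC2, of the clamp loader, rose from 46.5 ± 2.35 to 74.3 ± 7.32 CPM (log2 change 0.68, adjusted p = 8.83e-05). RRM1, the large subunit of ribonucleotide reductase, did not pass (46.2 ± 2.82 to 50.5 ± 4.61 CPM, log2 change 0.13, adjusted p = 0.31). The single fall was GINS3, a helicase accessory subunit, at 8.70, 9.51, 6.36 and 11.4 CPM in fresh cells and 7.06, 5.69, 3.04 and 6.36 CPM in spheroids with overlapping groups (log2 change -0.69, adjusted p = 0.0171), and without fresh cell replicate 4 it did not pass (log2 fold change -0.56, adjusted p = 0.0627).

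Brakes on the cell cycle were mixed, with 3 rises and 6 falls among 18 tested genes (median 0.0041). CDKN2B, an inhibitor of CDK4 and CDK6, went from 0.522, 0.717, 0.187 and 0.392 to 17.2, 11.5, 15.1 and 12.4 CPM (log2 change 4.88 ± 0.26 SE, adjusted p = 1.71e-09). CDKN1A, the cyclin-dependent kinase inhibitor p21, rose from 111 ± 6.78 to 155 ± 40.98 CPM (log2 change 0.48, adjusted p = 0.0118). GADD45G, a stress-induced growth arrest protein, fell from 277 ± 39.6 to 9.80 ± 1.02 CPM (log2 change -4.81, adjusted p = 5.94e-12). Its relative GADD45B fell from 235 ± 82.4 to 30.2 ± 1.21 CPM (log2 change -2.96, adjusted p = 1.56e-08). PERP, a membrane protein of desmosomes and cell death, did not pass at 1224 ± 101 to 1098 ± 108 CPM (log2 change -0.16, adjusted p = 0.121).

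Most enzymes that cut the extracellular matrix, and their inhibitors, rose. Of 22 tested proteases and inhibitors 20 rose, 17 at least 2-fold, and 1 fell (median 2.04). MMP7, an epithelial protease also called matrilysin (ENSSSCG00025055114), stood at 6.09, 7.71, 8.41 and 5.68 CPM in fresh cells and 3621, 3799, 5311 and 2607 CPM in spheroids (log2 change 9.10 ± 0.37 SE, adjusted p = 1.48e-10), a fitted change of 548-fold. MMP9, a gelatinase, went from 0.696, 0.359, 0.187 and 0.588 to 154, 164, 136 and 49.2 CPM (log2 change 8.05 ± 0.70 SE, adjusted p = 1.59e-07). PLAU, the urokinase that activates plasmin, stood at 11.1, 10.4, 5.80 and 3.14 CPM in fresh cells and 143, 190.4, 238 and 200.3 CPM in spheroids (log2 change 4.64 ± 0.28 SE, adjusted p = 4.76e-09). PLAT, its tissue-type relative, rose less, from 434 ± 34.8 to 598 ± 62.5 CPM (log2 change 0.46, adjusted p = 0.000252). The membrane protease ST14 rose from 88.8 ± 5.47 to 353 ± 37.5 CPM (log2 change 1.99, adjusted p = 9.62e-10). The metalloprotease inhibitors rose alongside, TIMP1 from 129 ± 14.7 to 778 ± 240.2 CPM (log2 change 2.59, adjusted p = 2.11e-08). TIMP2 rose from 193 ± 32.8 to 713 ± 101 CPM (log2 change 1.88, adjusted p = 5.75e-08).

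Basement membrane components and integrins, the receptors that hold epithelium to it, rose in 8 and fell in 2 of 12 tested genes (median 1.31), but 30 had been listed and most were not tested. ITGB6, an epithelial integrin chain that activates TGF-beta, stood at 1.04, 1.79, 0.935 and 0.588 CPM in fresh cells and 26.4, 21.1, 38.4 and 26.7 CPM in spheroids (log2 change 4.65 ± 0.28 SE, adjusted p = 3.99e-09). ITGB1, the common beta chain, rose from 118 ± 10.1 to 435 ± 84.9 CPM (log2 change 1.88, adjusted p = 6.94e-09). ITGAV rose from 50.7 ± 3.18 to 94.4 ± 7.92 CPM (log2 change 0.90, adjusted p = 3.39e-07). The laminin chain LAMC1 rose from 31.1 ± 2.83 to 126 ± 20.05 CPM (log2 change 2.02, adjusted p = 3.22e-09). The collagen chain COL4A5 fell from 28.3 ± 3.67 to 10.2 ± 1.21 CPM (log2 change -1.47, adjusted p = 9.62e-08), and ITGB5 did not pass at 53.6 ± 8.496 to 64.3 ± 10.96 CPM (log2 change 0.26, adjusted p = 0.111) except with the replicate number as a block (adjusted p = 0.0284), without TMM scaling (0.0439), without a filter (0.0436) and among genes with whole counts (0.0406).

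Keratins, S100 proteins and annexins rose together. All 12 tested of 30 listed genes rose without overlap, 10 at least 2-fold (median 2.42). S100A2 (ENSSSCG00025019554), a calcium-binding protein of basal and stratified epithelium, stood at 135, 186, 131 and 145 CPM in fresh cells and 8579, 7647, 11951 and 11659 CPM in spheroids (log2 change 6.06 ± 0.19 SE, adjusted p = 1.76e-11). SFN, the epithelial 14-3-3 protein that restrains the cell cycle, went from 1.57, 1.97, 0.374 and 0.784 to 83.6, 88.7, 155 and 65.2 CPM (log2 change 6.34 ± 0.44 SE, adjusted p = 1.85e-08). S100A11 rose from 335 ± 44.8 to 1389.6 ± 273 CPM (log2 change 2.05, adjusted p = 3.36e-08). The membrane-binding annexin ANXA1 rose from 612 ± 197 to 1399 ± 103 CPM (log2 change 1.19, adjusted p = 1.22e-05). ANXA2 rose from 1246 ± 60.9 to 3997 ± 606 CPM (log2 change 1.68, adjusted p = 4.55e-09). KRT8, a keratin of simple epithelium, rose less, from 832 ± 26.96 to 1450.4 ± 86.4 CPM (log2 change 0.80, adjusted p = 0.00173), with counts not whole in 91.7% of the 12 libraries. Outside this list, S100A6 rose from 256 ± 57.7 to 9696 ± 1456 CPM (log2 change 5.24, adjusted p = 2.87e-11) and S100A4, more often described in motile and mesenchymal cells, from 4.70, 2.87, 5.80 and 3.53 to 236, 291, 464 and 611 CPM (log2 change 6.56, adjusted p = 7.22e-09).

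Junction genes rose in 15 and fell in 4 of 24 tested (median 0.88). CDH1, the epithelial cadherin (ENSSSCG00025045907), stood at 382, 383, 434 and 396 CPM in fresh cells and 1142, 1208, 1352 and 1144 CPM in spheroids (log2 change 1.604 ± 0.087 SE, adjusted p = 1.73e-09), and its partner CTNNA1 rose from 306 ± 12.8 to 698 ± 30.8 CPM (log2 change 1.19, adjusted p = 3.44e-09). PKP1, a desmosomal plaque protein of stratified epithelium, rose from 0.870, 0.538, 0.187 and 1.57 to 15.3, 13.5, 30.8 and 19.8 CPM (log2 change 4.63 ± 0.38 SE, adjusted p = 9.34e-08). Among the claudins, which set what passes between cells, CLDN4 rose from 1656 ± 297 to 2720.2 ± 481 CPM (log2 change 0.72, adjusted p = 0.000274). CLDN7 rose from 357 ± 21.5 to 654 ± 80.5 CPM (log2 change 0.88, adjusted p = 1.58e-06), while CLDN10, an ion-selective form, stood at 479.9, 317, 403 and 412 CPM in fresh cells and 30.2, 26.6, 26.1 and 28.8 CPM in spheroids (log2 change -3.85 ± 0.16 SE, adjusted p = 1.79e-10). CLDN6, usually described in embryonic epithelium and outside the list, rose from 29.9, 30.7, 26.2 and 18.6 to 449, 597, 682 and 533 CPM (log2 change 4.42 ± 0.22 SE, adjusted p = 1.03e-09). Among the claudins, some forms rose and others fell.

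The list of actin cytoskeleton genes and targets of the mechanical cofactor YAP and the TEAD transcription factors rose in 15 and fell in 2 of 19 tested (median 1.58). The list summed to 11041 to 18389 CPM in fresh cells and 17021 to 19101 CPM in spheroids, with overlap. ACTG1, a cytoplasmic actin, stood at 4208, 4004, 3321 and 3239.6 CPM in fresh cells and 9629.8, 9008, 10145 and 9638 CPM in spheroids (log2 change 1.38 ± 0.10 SE, adjusted p = 3.17e-08). ACTN4, which bundles actin, rose from 281 ± 30.7 to 1596 ± 81.7 CPM (log2 change 2.50, adjusted p = 1.47e-10). The tropomyosin TPM4 rose from 492 ± 118 to 1739 ± 225 CPM (log2 change 1.82, adjusted p = 7.5e-08). The receptor kinase AXL rose from 6.05 ± 1.92 to 45.03 ± 4.49 CPM (log2 change 2.88 ± 0.18 SE, adjusted p = 5.78e-09). The falls were CCN1 and CCN2, the matricellular proteins most often used as readouts of YAP, which also respond to acute stimuli. CCN2 stood at 6991, 6295, 3809.6 and 3059.7 CPM in fresh cells and 1746, 807, 774 and 1091 CPM in spheroids (log2 change -2.19 ± 0.31 SE, adjusted p = 2.07e-05). CCN1 fell from 3597 ± 1091 to 485 ± 36.4 CPM (log2 change -2.89, adjusted p = 4.87e-09).

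Transport genes for ions and water were mixed, 8 rising and 4 falling of 16 (median 0.56). CFTR, the chloride channel that drives oviduct fluid, stood at 10.6, 12.6, 11.4 and 9.21 CPM in fresh cells and 37.5, 31.4, 20.4 and 37.5 CPM in spheroids (log2 change 1.53 ± 0.19 SE, adjusted p = 6.84e-06), with counts not whole in 66.7% of the 12 libraries. SLC26A4, the anion exchanger pendrin, fell from 2.26, 1.79, 2.62 and 4.31 to 0.122, 0.116, 0 and 0.600 CPM (log2 change -3.57 ± 0.60 SE, adjusted p = 0.000101), with a log2 fold change of -4.77 without spheroid replicate 4. ATP1B1, the beta chain of the sodium pump, fell from 563 ± 61.6 to 190.3 ± 12.98 CPM (log2 change -1.57, adjusted p = 1.3e-08). The potassium channel subunit KCNE3 fell from 159.9 ± 25.8 to 26.01 ± 4.65 CPM (log2 change -2.62, adjusted p = 4.6e-09). The bicarbonate transporter SLC4A4 rose from 34.4 ± 1.222 to 52.1 ± 9.51 CPM (log2 change 0.60, adjusted p = 0.000424). The potassium channel KCNJ15 rose from 1.603 ± 0.715 to 6.06 ± 0.758 CPM (log2 change 1.90, adjusted p = 2.16e-05).

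**Figure D5:**
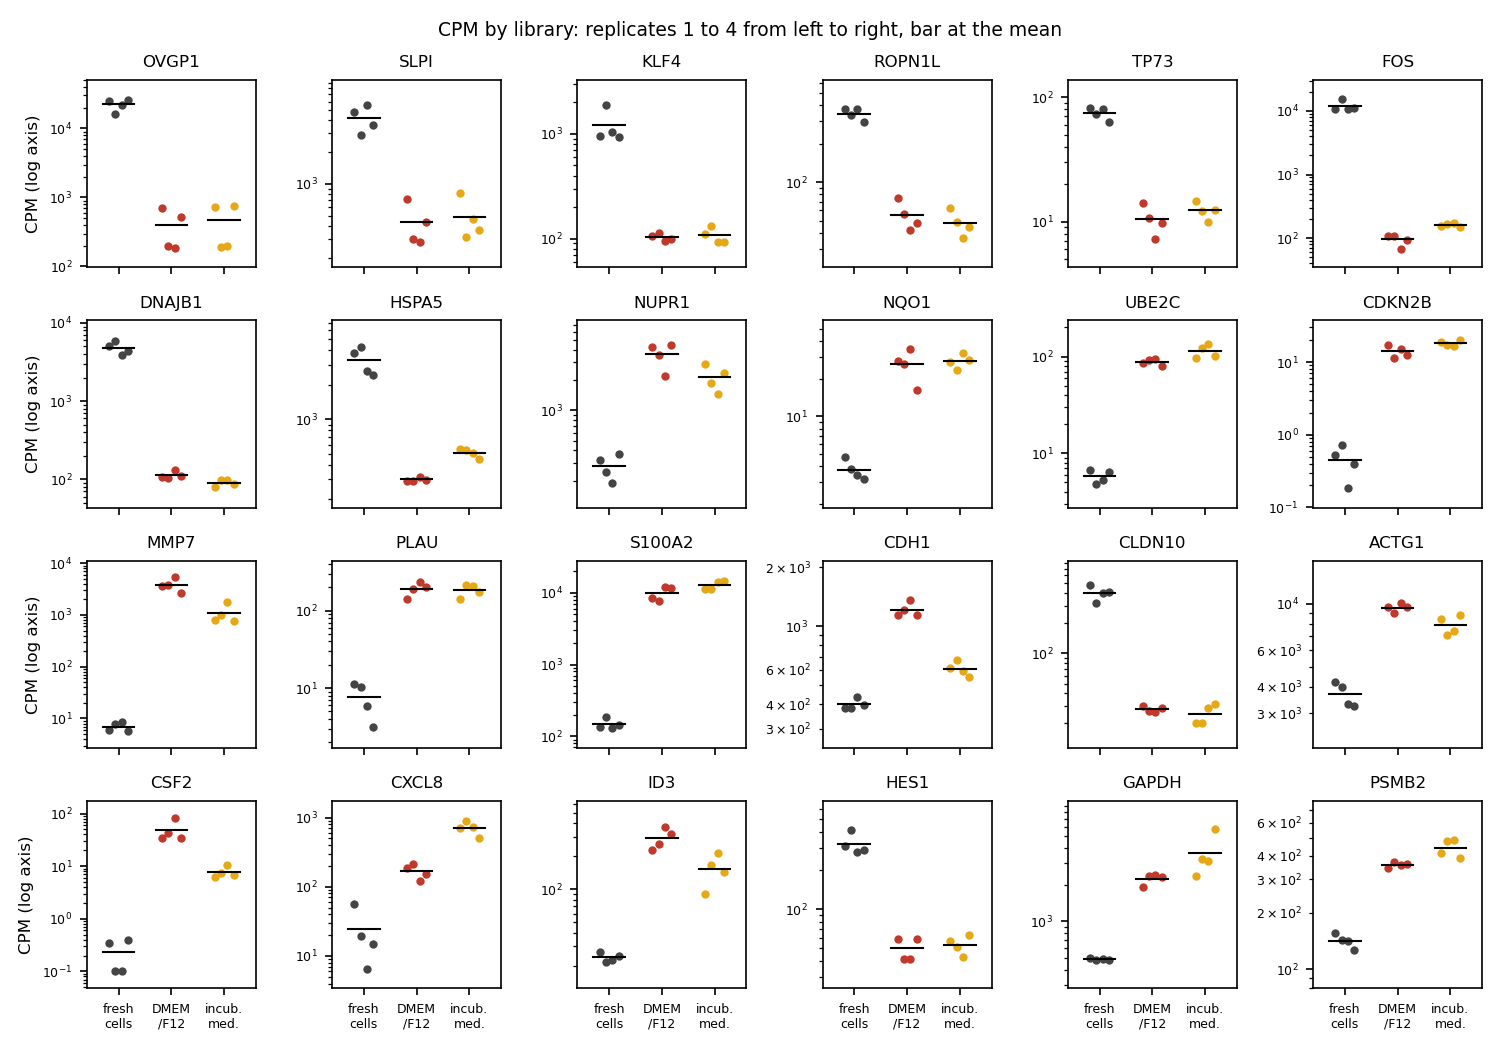
CPM (vertical axes, logarithmic, values under 0.1 drawn at 0.1) of 24 genes named in the text in each of 4 fresh cell (grey), 4 DMEM/F12 spheroid (red) and 4 incubation medium spheroid libraries (yellow), replicates 1 to 4 from left to right in each group, with a bar at the mean. Secretory, ciliary, immediate early and chaperone genes are lower in DMEM/F12 spheroids than in fresh cells. Mitotic, protease, keratin-group and metabolic genes are higher, as are NUPR1 and NQO1 of the ATF4 and antioxidant lists. These groups do not overlap in any panel.

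Secreted signals of inflammation went both ways, with 5 rises and 8 falls among 16 tested (median -0.12). CSF2, the granulocyte and macrophage growth factor, was at the counting limit in every fresh cell library and at 34.4, 43.2, 82.8 and 33.6 CPM in spheroids, at least 88.03-fold higher. CXCL8, which attracts neutrophils, stood at 55.5, 19.7, 6.54 and 14.9 CPM in fresh cells and 186, 216, 119 and 153 CPM in spheroids (log2 change 2.79 ± 0.43 SE, adjusted p = 4.71e-05), with fresh cell replicate 1 above the rest of its group and a log2 fold change of 3.62 without it. CCL2, which attracts monocytes, rose from 27.8, 20.4, 18.5 and 16.3 to 158, 282, 508 and 161 CPM (log2 change 3.73 ± 0.42 SE, adjusted p = 2.01e-06). IL6 fell instead, from 80.6, 51.5, 39.3 and 27.6 to 2.80, 5.81, 5.42 and 2.64 CPM (log2 change -3.58 ± 0.35 SE, adjusted p = 4.63e-07), and so did CXCL2, from 1025 ± 346 to 300.4 ± 74.8 CPM (log2 change -1.77, adjusted p = 6.68e-06), whose counts were not whole in any of the 12 libraries. LIF, a cytokine of the IL6 family, stood at 72.1, 14.2, 8.98 and 4.70 CPM in fresh cells and 40.9, 56.6, 57.6 and 35.8 CPM in spheroids and did not pass (log2 change 0.92, adjusted p = 0.163); without fresh cell replicate 1 its log2 fold change was 2.35 with an adjusted p of 6.25e-05. CXCL16 did not pass either (147 ± 31.2 to 202 ± 62.01 CPM, log2 change 0.46, adjusted p = 0.114), except with the replicate number as a block (adjusted p = 0.00623), without a filter on low counts (0.0460) and without spheroid replicate 1 (log2 fold change 0.67, adjusted p = 0.0136).

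In the EGF family 8 genes rose and 7 fell of 16 (median 0.083). Of the receptors, ERBB3 rose from 82.4 ± 5.17 to 245 ± 12.2 CPM (log2 change 1.57, adjusted p = 9.67e-10), EGFR fell from 237 ± 41.8 to 149 ± 24.5 CPM (log2 change -0.67, adjusted p = 0.000502) and ERBB2 did not pass (126 ± 22.8 to 110.1 ± 4.38 CPM, log2 change -0.19, adjusted p = 0.164) except without fresh cell replicate 1 (log2 fold change -0.31, adjusted p = 0.00819). The ligand HBEGF fell from 179 ± 44.9 to 53.9 ± 5.92 CPM (log2 change -1.73, adjusted p = 2.41e-07). LRIG1, which restrains these receptors, fell from 94.2 ± 9.04 to 16.1 ± 2.00 CPM (log2 change -2.54 ± 0.12 SE, adjusted p = 5.5e-10). ERRFI1, another restraint on them, fell from 165 ± 57.2 to 96.2 ± 11.3 CPM (log2 change -0.78, adjusted p = 0.00217). ETV4, a transcription factor at the end of the ERK pathway, went from 0.870, 1.08, 1.496 and 1.37 to 13.3, 25.4, 27.4 and 17.4 CPM (log2 change 4.10 ± 0.33 SE, adjusted p = 6.04e-08).

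TGF-beta and BMP genes were balanced, 8 up and 8 down of 21 (median 0.056). The ligand TGFB3 fell from 26.002 ± 5.82 to 4.62 ± 0.668 CPM (log2 change -2.48 ± 0.20 SE, adjusted p = 5.93e-08), while the receptor TGFBR2 rose from 44.8 ± 6.88 to 271 ± 13.8 CPM (log2 change 2.59 ± 0.12 SE, adjusted p = 3.26e-10). ID3, a BMP target that blocks differentiation factors, stood at 26.6, 21.5, 22.6 and 24.7 CPM in fresh cells and 229, 257, 371 and 322 CPM in spheroids (log2 change 3.62 ± 0.24 SE, adjusted p = 9.94e-09). ID1 rose from 53.3 ± 16.4 to 93.6 ± 8.74 CPM (log2 change 0.81, adjusted p = 0.00788). SMAD4, the shared signal carrier, was slightly lower (log2 change -0.36, adjusted p = 0.00181).

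Wnt and Notch genes fell more often than they rose, 14 against 4 of 24 (median -0.91). HES1, a direct Notch target, stood at 310.3, 410.3, 278 and 288 CPM in fresh cells and 58.9, 41.6, 41.1 and 58.5 CPM in spheroids (log2 change -2.68 ± 0.17 SE, adjusted p = 6.52e-09). HEY1, another, fell from 13.9, 14.7, 5.80 and 10.97 to 0.487, 0.232, 0.529 and 0.360 CPM (log2 change -4.78 ± 0.42 SE, adjusted p = 1.68e-07). The Notch ligand JAG1 fell from 227 ± 34.5 to 77.6 ± 4.29 CPM (log2 change -1.55, adjusted p = 2.87e-08). The Wnt receptor FZD5 fell from 207 ± 29.4 to 34.1 ± 6.84 CPM (log2 change -2.60, adjusted p = 1.99e-09). Receptors NOTCH2 (157 ± 16.2 to 166 ± 15.5 CPM, log2 change 0.078, adjusted p = 0.454) and LGR4 (95.5 ± 8.04 to 83.2 ± 1.56 CPM, log2 change -0.20, adjusted p = 0.125) did not pass; LGR4 passed without incubation medium replicate 3 (adjusted p = 0.0467) and in the fit of the 8 libraries alone (0.0468). DKK3, a secreted glycoprotein of the Dickkopf family, was at the counting limit in fresh cells and at 36.98, 39.5, 52.1 and 45.99 CPM in spheroids, at least 79.2-fold higher.

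Of 9 tested prostaglandin genes 4 rose and 4 fell (median 0.58). PTGES, which makes prostaglandin E2, rose from 1.91, 1.43, 2.99 and 5.10 to 51.3, 54.5, 66.4 and 59.3 CPM (log2 change 4.35 ± 0.33 SE, adjusted p = 3.7e-08). PTGIS, which makes prostacyclin, fell from 26.5, 46.3, 24.5 and 43.7 to 4.62, 11.3, 3.97 and 11.8 CPM (log2 change -2.14 ± 0.47 SE, adjusted p = 0.000988). HPGD, which inactivates prostaglandins, was at 2.26, 1.61, 1.31 and 2.55 CPM in fresh cells and at the counting limit in spheroids, at least 5.27-fold lower. The receptor PTGER4 fell from 106 ± 8.21 to 18.2 ± 3.75 CPM (log2 change -2.54, adjusted p = 1.66e-08).

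Genes of glycolysis and glucose uptake rose more often than they fell. Of 21 tested genes 11 rose, 8 at least 2-fold, and 4 fell (median 0.82). GAPDH stood at 495, 476, 487 and 482 CPM in fresh cells and 1911, 2345, 2394 and 2301 CPM in spheroids (log2 change 2.21 ± 0.21 SE, adjusted p = 3.18e-07). Enolase ENO1 rose from 144 ± 7.28 to 1090.2 ± 123 CPM (log2 change 2.92, adjusted p = 6.58e-09). The pyruvate kinase PKM rose from 205 ± 18.2 to 1029 ± 64.4 CPM (log2 change 2.33, adjusted p = 1.79e-08). The glucose transporter SLC2A3 went the other way, from 75.9, 82.9, 72.7 and 64.7 to 5.96, 8.36, 10.3 and 4.92 CPM (log2 change -3.33 ± 0.49 SE, adjusted p = 3.01e-05). TPI1, a middle enzyme of the path, did not pass, although its groups did not overlap (355, 351, 358 and 326 CPM in fresh cells and 371, 440.2, 452 and 408 CPM in spheroids, log2 change 0.27, adjusted p = 0.288). In the fit of the 8 libraries alone it passed (adjusted p = 0.0125).

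Mitochondrial genes rose by small amounts. Of 26 tested nuclear genes of the respiratory chain 22 rose, 4 at least 2-fold, and 1 fell (median 0.44). COX5A, of cytochrome c oxidase, rose from 116 ± 12.5 to 310.1 ± 34.1 CPM (log2 change 1.42 ± 0.10 SE, adjusted p = 2.73e-08). ATP5F1A, of ATP synthase, rose from 263 ± 21.99 to 471 ± 11.3 CPM (log2 change 0.84, adjusted p = 5.4e-07). NDUFA4 rose from 248 ± 18.5 to 339 ± 32.8 CPM (log2 change 0.45, adjusted p = 0.00109). In the tricarboxylic acid cycle and fatty acid oxidation 13 of 22 rose and 5 fell (median 0.33). DLST rose from 43.9 ± 5.85 to 102 ± 6.72 CPM (log2 change 1.21, adjusted p = 3.57e-07). IDH2 rose from 124 ± 24.5 to 231 ± 21.96 CPM (log2 change 0.90, adjusted p = 2.18e-05), whereas OGDH, which works in the same complex as DLST, fell from 207 ± 29.3 to 119 ± 13.8 CPM (log2 change -0.80, adjusted p = 2.82e-05). PDK4, which shuts pyruvate out of the cycle, fell from 47.2, 67.8, 65.4 and 73.5 to 27.98, 10.3, 9.66 and 11.8 CPM (log2 change -2.08 ± 0.40 SE, adjusted p = 0.000328).

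Lipid synthesis rose in 15 of 23 tested genes and fell in 1 (median 0.60). HMGCS1, an early enzyme of the cholesterol path, stood at 85.98, 42.5, 60.8 and 54.1 CPM in fresh cells and 165, 146, 192 and 131 CPM in spheroids (log2 change 1.38 ± 0.17 SE, adjusted p = 6.46e-06). IDI1 rose from 46.6 ± 14.998 to 177 ± 26.3 CPM (log2 change 1.92, adjusted p = 4.49e-07). DHCR7, the last enzyme, rose from 11.1 ± 3.15 to 52.6 ± 9.79 CPM (log2 change 2.24 ± 0.17 SE, adjusted p = 5.1e-08). Their regulator SREBF2 rose from 81.9 ± 12.3 to 248 ± 12.7 CPM (log2 change 1.598, adjusted p = 6.79e-09). INSIG1, which restrains that regulator, was the fall, with overlapping groups (90.6 ± 34.3 to 62.3 ± 13.5 CPM, log2 change -0.54, adjusted p = 0.0403). It missed the threshold on leaving out any one of 7 libraries, with the highest adjusted p without fresh cell replicate 1 (log2 fold change -0.29, adjusted p = 0.204). It also missed it without a filter (adjusted p = 0.0513), without TMM scaling (0.0623), in the fit of the 8 libraries alone (0.0633) and among genes with whole counts (0.0716).

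Of the machinery that makes and removes proteins, the proteasome was the most uniform. Of 34 tested subunit genes 32 rose, 17 at least 2-fold, and 1 fell (median 0.98). PSMB2, of the catalytic core, stood at 157, 143, 141 and 127 CPM in fresh cells and 346, 372, 359 and 361 CPM in spheroids (log2 change 1.34 ± 0.092 SE, adjusted p = 1.55e-08). PSMB3 rose from 45.7 ± 3.77 to 195 ± 18.1 CPM (log2 change 2.09, adjusted p = 1.34e-09). PSMA7 rose from 202 ± 19.8 to 410.1 ± 34.2 CPM (log2 change 1.02, adjusted p = 3.42e-07). PSME1, of an alternative cap linked to antigen processing, fell from 361 ± 39.8 to 235 ± 30.9 CPM (log2 change -0.62, adjusted p = 0.000104). Nucleolar genes rose in 15 of 18 cases with no fall (3 at least 2-fold, median 0.46), among them FBL, which methylates ribosomal RNA, from 119.5 ± 15.7 to 208 ± 25.5 CPM (log2 change 0.80, adjusted p = 5.33e-05). POLR1B, of RNA polymerase I, rose from 11.3 ± 2.90 to 28.4 ± 2.63 CPM (log2 change 1.33, adjusted p = 5.3e-06). The abundant nucleolar protein NPM1 did not pass (709 ± 42.1 to 737 ± 61.1 CPM, log2 change 0.055, adjusted p = 0.537). Ribosomal proteins themselves leaned down, with 21 falls and 5 rises among 37 tested genes and none changed 2-fold (0 up and 0 down, median -0.29). RPL6 fell from 2569.6 ± 85.3 to 1337 ± 58.2 CPM (log2 change -0.94, adjusted p = 1.92e-08), while RPSA rose from 1919 ± 62.1 to 2999.7 ± 166 CPM (log2 change 0.64, adjusted p = 1.45e-05) with counts not whole in 91.7% of the 12 libraries.

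Genes in common use as references were not level between the groups. Of 17 tested 13 rose, 6 at least 2-fold, and 3 fell (median 0.68). GAPDH rose as given above, the adaptor YWHAZ rose from 474 ± 72.97 to 1041 ± 181 CPM (log2 change 1.14, adjusted p = 2.27e-06), the elongation factor EEF1A1 fell from 10754 ± 678 to 7294 ± 286 CPM (log2 change -0.56, adjusted p = 2.39e-05) and RPLP0 rose by little (log2 change 0.27, adjusted p = 0.00469).

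Interferon and antigen presentation genes did not move one way, 8 up and 5 down of 17 (median 0.15). ISG20, an exonuclease, was at the counting limit in fresh cells and at 29.4, 42.2, 78.3 and 45.7 CPM in spheroids, at least 88.8-fold higher. IFI6 fell from 2088 ± 461 to 956 ± 436 CPM (log2 change -1.13 ± 0.37 SE, adjusted p = 0.0142). IRF9 fell from 164 ± 14.2 to 97.6 ± 10.9 CPM (log2 change -0.75, adjusted p = 4.65e-06). The class II chain CD74 fell from 1999 ± 129.9 to 1633 ± 125 CPM (log2 change -0.29, adjusted p = 0.00424), and MX1 did not pass (176 ± 27.1 to 158 ± 24.1 CPM, log2 change -0.16, adjusted p = 0.359).

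Markers of cells other than epithelium were read in both groups. Of 20 stromal and smooth muscle genes 10 were tested, 5 fell and 2 rose, and the list summed to 2342 to 2734 CPM in the fresh cell libraries and 187 to 308 CPM in the spheroid libraries. Most of that sum was MGP, an inhibitor of calcification, at 1882, 1377, 1848 and 1339 CPM in fresh cells and 76.998, 13.8, 33.2 and 18.3 CPM in spheroids (log2 change -5.50 ± 0.44 SE, adjusted p = 5.96e-08), with a log2 fold change of -6.20 without spheroid replicate 1, and FBLN1, a matrix fibulin, which fell from 855 ± 140.3 to 136 ± 15.8 CPM (log2 change -2.65, adjusted p = 8.81e-09). COL3A1, a fibroblast collagen, went from 27.7, 23.1, 14.2 and 31.4 to 0.851, 0.581, 0.265 and 0.600 CPM (log2 change -5.33 ± 0.34 SE, adjusted p = 7.06e-09). COL1A1 stood at 22.8, 37.5, 16.3 and 48.02 CPM in fresh cells and 28.5, 21.95, 6.88 and 30.5 CPM in spheroids and did not pass (log2 change -0.50, adjusted p = 0.32) except with the replicate number as a block (adjusted p = 0.0317). THY1, a surface protein of fibroblasts, rose from 0.696, 0.179, 0 and 0.196 to 45.3, 18.005, 11.8 and 16.4 CPM (log2 change 6.29 ± 0.68 SE, adjusted p = 1.35e-06), with a log2 fold change of 7.34 without fresh cell replicate 1, and the other rise was COL5A1, named here after its values were seen, at 5 counts over the 4 fresh cell libraries and 314 over the spheroid libraries. OGN, a small matrix proteoglycan off the list, fell from 121 ± 26.8 to 6.36 ± 4.08 CPM (log2 change -4.23, adjusted p = 4.62e-07). Whether stromal cells were lost, and how far that entered the falls of the epithelial genes above, was not tested.

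Leukocyte markers were mostly at low levels: 8 of 20 were tested, 3 fell and 1 rose, and 11 of the 12 in the table stayed under 20 CPM in all 8 libraries. The exception was CD79A, a chain of the B cell receptor, at 481, 437, 439.6 and 469.6 CPM in fresh cells. In spheroids CD79A stood at 409, 410.4, 474 and 459 CPM and did not pass (log2 change -0.061, adjusted p = 0.513). Its counts were not whole in 91.7% of the 12 libraries. MS4A1, also a B cell marker, had 0 counts over the fresh cell libraries and 1 over the spheroid libraries. Whether the CD79A row reflects B cells was not tested. TYROBP, a signalling adaptor of myeloid and natural killer cells, stood at 15.8, 13.6, 9.16 and 16.9 CPM in fresh cells and 7.42, 8.25, 3.57 and 3.12 CPM in spheroids (log2 change -1.30 ± 0.38 SE, adjusted p = 0.00714), AIF1, a macrophage protein, at 11.8, 8.25, 8.601 and 10.6 CPM in fresh cells and 3.65, 6.50, 1.32 and 1.44 CPM in spheroids (log2 change -1.59, adjusted p = 0.00398) and FCER1G at 13.8, 15.8, 8.98 and 12.3 CPM in fresh cells and 8.51, 14.5, 6.35 and 4.44 CPM in spheroids, not passing (log2 change -0.58, adjusted p = 0.212) except with the replicate number as a block (adjusted p = 0.021). CORO1A, an actin regulator of leukocytes, rose from 3.78 ± 0.693 to 15.4 ± 3.42 CPM (log2 change 2.03, adjusted p = 9.26e-07). Of 14 endothelial genes 6 were tested, 2 rose and 2 fell. CDH5, the endothelial cadherin, stood at 12.01, 12.2, 14.6 and 6.86 CPM in fresh cells and 124, 71.9, 176 and 60.8 CPM in spheroids (log2 change 3.24 ± 0.33 SE, adjusted p = 8.4e-07) and KDR, a receptor for vascular growth factor, rose from 20.9 ± 6.83 to 74.1 ± 31.4 CPM (log2 change 1.83, adjusted p = 0.000365), whereas PECAM1 fell from 15.1 ± 0.866 to 7.91 ± 1.00 CPM (log2 change -0.93, adjusted p = 2.01e-05). PLVAP fell from 2.62 ± 0.687 to 0.337 ± 0.330 CPM (log2 change -2.90, adjusted p = 0.000131, and log2 fold change -3.53 without spheroid replicate 2), and VWF had 0 counts in all 8 libraries. The mesothelial list had 2 tested genes, HP and WT1, both given above, and the erythrocyte and platelet list 2, of which ITGA2B was higher in spheroids (51.6 ± 3.06 to 61.3 ± 1.38 CPM, log2 change 0.25, adjusted p = 0.00479).

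Beyond the lists, further genes stood among the 20 greatest rises and 20 greatest falls with a symbol and no overlap. These also had a mean of at least 50 CPM over the 8 libraries, which a rising gene could reach through its spheroid level alone. That limit left out larger rises at lower levels, such as those of CSF2 and DKK3 above. RCAN2, a regulator of calcineurin, went from 0.522, 1.08, 0.561 and 1.57 to 126, 127, 165 and 118 CPM (log2 change 7.16 ± 0.21 SE, adjusted p = 5.94e-12), and ALDH1A3, which makes retinoic acid, from 6.09, 2.87, 2.99 and 2.55 to 355, 173, 268 and 205 CPM (log2 change 6.09 ± 0.33 SE, adjusted p = 1.64e-09). PLET1, a surface protein of placental and epithelial progenitors, was at the counting limit in fresh cells and at 46.8, 122, 192 and 109.9 CPM in spheroids, at least 213-fold higher, with a wide spread between spheroid libraries. FHL2, a cofactor that links actin to transcription, rose from 3.51 ± 1.79 to 218 ± 30.8 CPM (log2 change 5.96, adjusted p = 5.49e-11). MAL, an apical membrane protein, rose from 8.26 ± 2.52 to 218 ± 55.9 CPM (log2 change 4.72, adjusted p = 7.58e-08). GABRP, a subunit of the GABA receptor found in epithelia, rose from 38.4 ± 9.48 to 861 ± 149.997 CPM (log2 change 4.49, adjusted p = 1.47e-10). FXYD3, a modulator of the sodium pump, rose from 22.3 ± 12.5 to 380.1 ± 20.1 CPM (log2 change 4.08, adjusted p = 1.56e-08). HMGA1, a chromatin protein of proliferating and embryonic cells, rose from 70.7 ± 4.77 to 1147 ± 158 CPM (log2 change 4.02, adjusted p = 4.88e-12). RAB31, CFL2, NT5C, UPP1 and TNFRSF1B completed the 20 with log2 fold changes of 4.62, 4.17, 4.10, 3.76 and 3.76.

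Among the falls, SCRG1 went from 487, 253, 391.5 and 390.002 to 2.43, 1.16, 3.31 and 1.20 CPM (log2 change -7.56 ± 0.31 SE, adjusted p = 1.47e-10). CCNA1, a cyclin better known from the germ line and ciliated epithelium, went from 172, 154, 102 and 106 to 3.89, 2.32, 0.265 and 1.44 CPM (log2 change -6.05 ± 0.35 SE, adjusted p = 3.37e-09), in the opposite direction to the mitotic genes. TMEM212 fell from 247 ± 22.8 to 7.45 ± 5.11 CPM (log2 change -5.04, adjusted p = 3.52e-08). The dipeptidase DPEP2 fell from 174 ± 20.5 to 5.55 ± 3.88 CPM (log2 change -4.96, adjusted p = 6.76e-09). The growth factor binding protein IGFBP5 fell from 186 ± 28.5 to 8.76 ± 1.26 CPM (log2 change -4.41, adjusted p = 1.17e-08). The peptide transporter SLC15A2 fell from 189.97 ± 32.9 to 10.2 ± 3.19 CPM (log2 change -4.22, adjusted p = 5.58e-09). By difference of level, the greatest losses also held TPT1, a translation-associated protein, from 13837 ± 1323 to 6004 ± 348 CPM (log2 change -1.20, adjusted p = 2.29e-08). The ubiquitin gene UBB, whose counts were not whole in any of the 12 libraries, fell from 10407 ± 1692 to 3164 ± 48.5 CPM (log2 change -1.72, adjusted p = 4.04e-09). TMSB10, an actin-sequestering peptide, rose from 631 ± 20.5 to 4922 ± 683 CPM (log2 change 2.96, adjusted p = 3.98e-11). Its relative TMSB4X rose less, from 5578 ± 489.9 to 8386 ± 908 CPM (log2 change 0.59, adjusted p = 0.000153).

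The DMEM/F12 spheroids were last set against the spheroids formed in incubation medium, by their own contrast of the same fit. Of the tested genes 3522 (25.0%) passed, 1731 (12.3%) higher and 1791 (12.7%) lower in DMEM/F12, and at least 2-fold differences numbered 476 (3.38%) higher and 290 (2.06%) lower. All 37 tested ribosomal proteins were lower in DMEM/F12 (median -0.47). So were 14 of 18 nucleolar genes, 14 of 26 respiratory chain genes, 10 of 21 glycolysis genes and 12 of 16 ATF4 genes. The glycolysis list summed to 15076 CPM in incubation medium replicate 4 and to 6681 to 9768 CPM in the rest of that group. In DMEM/F12 it summed to 6018 to 7587 CPM. Mitosis genes were lower in DMEM/F12 in 12 of 25 cases with 0 higher, and endoplasmic reticulum genes in 7 of 14 with 1 higher. Higher in DMEM/F12 were 13 of 19 actin and YAP genes with 0 lower, and 13 of 24 junction genes with 2 lower. So were 12 of 22 proteases and inhibitors with 3 lower, and 11 of 25 immediate early genes with 1 lower. Of the axoneme genes 0 were higher and 1 lower, and of the secretory genes 0 and 3.

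Some single genes differed widely between the media, in a comparison that shares the DMEM/F12 libraries with that against fresh cells. PLET1 stood at 2.03, 6.41, 11.8 and 9.0004 CPM in incubation medium spheroids, below every DMEM/F12 library (log2 change 4.01 ± 0.43 SE, adjusted p = 2.06e-05). ALDH1A3 was at 28.6, 15.6, 22.9 and 15.6 CPM there (log2 change 3.59 ± 0.26 SE, adjusted p = 1.27e-06), and DHRS3, which returns retinal to retinol and so opposes it, was at 677, 555, 581 and 605 CPM against 83.6, 74.1, 54.2 and 101 CPM in DMEM/F12 (log2 change -2.95 ± 0.15 SE, adjusted p = 7.4e-08). Against fresh cells DHRS3 did not pass in DMEM/F12 (84.2, 90.03, 104 and 94.7 CPM in fresh cells, log2 change -0.25, adjusted p = 0.139), except without spheroid replicate 4 (log2 fold change -0.38, adjusted p = 0.0232). The extracellular superoxide dismutase SOD3 (log2 change 2.89 ± 0.40 SE, adjusted p = 0.000161), the adhesion protein CD24 (log2 change 2.54 ± 0.22 SE, adjusted p = 5.19e-06) and complement factor D, CFD (log2 change 1.91 ± 0.11 SE, adjusted p = 1.45e-07), were also higher in DMEM/F12. CFD stood at 836, 1086, 1067 and 886 CPM in fresh cells and 892, 863, 1072 and 807 CPM in spheroids and did not pass against fresh cells (log2 change -0.092, adjusted p = 0.445). Against fresh cells SOD3 passed with overlapping groups (log2 change 1.14, adjusted p = 0.0132), but not without spheroid replicate 1 (log2 fold change 0.77, adjusted p = 0.0549). Lower in DMEM/F12 than in incubation medium were PSAT1 (log2 change -2.23 ± 0.17 SE, adjusted p = 1.35e-06), PLAT (log2 change -2.15 ± 0.09 SE, adjusted p = 1.16e-08), the growth factor carrier FGFBP1 (log2 change -2.14 ± 0.34 SE, adjusted p = 0.000472) and CXCL8 (log2 change -2.07 ± 0.40 SE, adjusted p = 0.00172). CXCL8, PLAT and FGFBP1 had all risen from fresh cells to DMEM/F12 spheroids (FGFBP1 from 83.8 ± 47.1 to 505 ± 176 CPM, log2 change 2.59, adjusted p = 1.37e-05), and their levels in DMEM/F12 lay between those of fresh cells and of the other medium. SPP1 was likewise at 22196, 21728, 21594 and 25047 CPM in incubation medium spheroids, above both other groups (log2 change -1.59 ± 0.17 SE, adjusted p = 2.28e-05 for DMEM/F12 minus incubation medium).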

How the data were processed

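RNA of 12 libraries was sequenced from oligo-dT primed, tagmented and PCR-amplified cDNA, per the labels' protocols. The submitters' processing notes name fastp 0.24.0, STAR 2.7.11, SAMtools 1.22.1, featureCounts and Subread 2.1.1; the genome build and any use of molecular identifiers are not given in the sources used here. The deposited table holds an expected count per gene and library, of which 19.1 to 20.5% of the nonzero values are not whole, and CPM, per the file headers, used only as a check.

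Raw counts had been planned for, and the expected counts were rounded first. All 12 libraries entered one edgeR 4.0.16 fit (R 4.3.3; filterByExpr, TMM, quasi-likelihood F-test, Benjamini-Hochberg adjustment over 14070 genes); SE is the absolute log2 fold change over the root of F. Levels are CPM with TMM-scaled totals, not the deposited CPM. The fit was tested on simulated counts. Deviations from group means correlated at 0.226 to 0.284 between fresh cell and spheroid libraries of the same replicate number and at -0.169 to -0.043 between the others, so the numbers appear to pair the samples; this rests on the data alone.

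Named genes are the 20 greatest rises and falls with a symbol, no overlap and at least 50 CPM as a mean over both groups. They are also the 10 highest in level in each group, and up to 5 highest members of each list with its greatest rise and fall. The rest are the 5 greatest differences in CPM each way and the 5 greatest each way between media. Of 257 such genes those that served the account are named. Some genes are not reported here. The 37 lists hold 995 symbols, 654 of them on tested rows; symbols come from the deposited table, and no coordinates or sequences are given. Members and lists were chosen with earlier results of these data known. Alternatives were other filters, scalings, DESeq2 1.42.0, a replicate block, whole counts, thinning and leaving out each library.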

Additional observations from a re-analysis of the deposited data

Results flagged for a closer look

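In groups of 4 libraries, a library was marked where its gap to the nearest other exceeded Dixon's 95% critical share of the group's range, which chance alone does in about 1 of 20 groups. Of 438 groups of named genes 23 were marked.

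In fresh cells, replicate 2 stood highest for 6 genes: FOS at 15556 CPM (others 10800 to 11129 CPM), KLF4 at 1872 CPM (938 to 1042 CPM), ATF3 at 4393 CPM (2782 to 3001 CPM), GADD45G at 336 CPM (254 to 259 CPM), TIMP2 at 242 CPM (169 to 181 CPM) and OGN at 161 CPM (102 to 112 CPM). It stood lowest for SREBF2 at 63.7 CPM (86.0 to 90.2 CPM). Replicate 1 stood highest for LIF at 72.1 CPM (4.70 to 14.2 CPM), CCNO at 10.1 CPM (3.33 to 4.11 CPM), ALDH1A3 at 6.09 CPM (2.55 to 2.99 CPM) and CFAP53 at 123 CPM (114 to 115 CPM), and replicate 3 for PSMA7 at 231 CPM (189 to 195 CPM).

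In DMEM/F12 spheroids, replicate 1 stood highest for TIMP1 at 1135 CPM (others 613 to 700.5 CPM), PDK4 at 28.0 CPM (9.66 to 11.8 CPM), PTGER4 at 23.8 CPM (15.9 to 16.8 CPM) and RHOB at 249 CPM (207 to 212 CPM), and lowest for PKM at 933 CPM (1057 to 1066 CPM). Replicate 3 stood highest for ANXA2 at 4903 CPM (3633 to 3764 CPM), CLDN4 at 3438 CPM (2436 to 2560 CPM), TPM4 at 2076 CPM (1599 to 1650 CPM), TXN at 2134 CPM (1497 to 1605 CPM) and LAMC1 at 156 CPM (113 to 117 CPM), and replicate 4 for ITGA2B at 63.4 CPM (60.5 to 60.9 CPM).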

How the results depend on the processing

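The counts of called genes stayed within 1.5 times of those reported under every alternative run but one. Among the 5935 tested genes whose counts were whole in every library, and so by fewer genes tested, 4180 were called against fresh cells (2101 higher, 2079 lower), 2378 of them at least 2-fold (1023 and 1355), and 1341 between the media (665 and 676). Leaving out single libraries gave 9611 to 10258 calls, 5035 to 5313 of at least 2-fold, and 2795 to 3568 between the media. With the replicate number as a block 10471 genes were called, 5028 at least 2-fold, and 4613 between the media. Of the 233 single-gene comparisons named, the block changed 5 calls, those of MT2A, ITGB5, CXCL16, COL1A1 and FCER1G, and no other. CD79A, not called, turned from -0.061 to 0.012 (log2) both without a filter on low counts and with library totals in place of TMM scaling; every other named gene kept its direction. Library totals in place of TMM scaling moved the median over all genes from -0.014 to 0.060 and the share of calls that were higher from 49.6 to 53.6%. The medians of 9 lists changed sign in at least 1 alternative: the ATF4, cell cycle inhibitor, ion transport, cytokine, EGF, TGF-beta, prostaglandin, leukocyte and erythrocyte lists. Among genes with whole counts, the medians of the protease, keratin, actin and endothelial lists were 3.18, 4.64, 2.45 and 1.90, and with thinned counts that of the stromal list was -2.68. A count of 0 allows up to 3 counts, 0.522 to 0.588 CPM in fresh cells and 0.348 to 0.397 CPM in DMEM/F12 spheroids; floors cover counting error only.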

Other observations

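Replicate number carried its own differences, in an analysis chosen after the data were seen. In the fit with a term for the number, 1012 of the 14070 tested genes (7.19%) differed between numbers at an adjusted p under 0.05 (edgeR quasi-likelihood F-test), and the biological coefficient of variation was 0.101 with the term and 0.146 without. The genes below lead by p among those with a symbol. HNRNPL, a splicing regulator, stood at 107, 259, 281 and 85.1 CPM in fresh cells, 133, 328, 344 and 133 CPM in DMEM/F12 spheroids and 147, 362, 364 and 136 CPM in incubation medium spheroids (replicates 1 to 4; adjusted p = 1.83e-07). In all 3 groups replicates 2 and 3 were the higher pair. PCBP2, another RNA-binding protein, was highest in replicate 4 of each group, at 591, 653 and 891 CPM (adjusted p = 2.5e-05). TFAP4, a transcription factor, was highest in replicate 2 of each group, at 11.8, 7.67 and 10.9 CPM, with every other library at 3.09 CPM or less (adjusted p = 3.15e-05). PI3, a secreted elastase inhibitor, was near 0 in fresh cells and reached 86.2, 4.99, 13.5 and 3.36 CPM in DMEM/F12 spheroids, so replicate 1 was the highest there and in incubation medium (186 CPM).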
